A study of Mus musculus with 8 samples.

Results

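The Toll-like receptor genes Tlr1 to Tlr9 and the adaptor gene Myd88 were followed in the livers of mice given furan, a small volatile compound that the liver oxidises to a reactive dialdehyde, and of mice given the vehicle. These 10 genes were taken by symbol, through the RefSeq accession of each array probe, and they were chosen because Tlr5 was lower in the furan livers. The furan against vehicle values of the 10 genes are therefore given as a description. Of the 10 genes, 8 were kept by the filter on dim probes, out of 24921 features tested, and 15070 of those features had a gene symbol. The members left out were Tlr3 and Tlr8.

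The furan group was 4 female B6C3F1 mice, a hybrid strain, that received furan at 8 mg/kg of body weight in corn oil by oral gavage, and the vehicle group was 4 females of the strain that received corn oil alone. Dosing ran for 21 days, and the tissue was collected 4 hours after the final gavage. All mice were bought at 5 to 6 weeks of age, under specific pathogen free conditions, and were acclimatised for at least 7 days. RNA came from about 100 mg of whole frozen liver, so every value sums over all cell types of the tissue, and fewer cells of a type cannot be told apart from less RNA per cell. Levels are log2 processed spot intensities relative to the 75th percentile of the same array, and a difference is the furan mean minus the vehicle mean on that scale.

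Toll-like receptors are membrane proteins that bind molecules typical of microbes through leucine-rich repeats and signal through a cytoplasmic TIR domain. Tlr1, Tlr2, Tlr4, Tlr5 and Tlr6 act mainly at the cell surface, and Tlr3, Tlr7, Tlr8 and Tlr9 act in endosomes on nucleic acids. All of them except Tlr3 can signal through Myd88, which recruits the Irak kinases and leads to activation of NF-kappaB. In the liver, blood from the gut brings microbial products to resident macrophages (Kupffer cells), endothelium and hepatocytes, all of which can carry these receptors.

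RefSeq promoter windows (assembly GRCm38.p6) were found for 8 of the 10 genes, all but Tlr4 and Tlr7, and 250 bases before the start were searched on both strands for 6 motifs. The motifs were AP-1 (TGANTCA), GAS (TTCNNNGAA), the antioxidant response element core (TGACNNNGC), the ISRE core and kappaB, both by name, and the TATA box (TATAAA). Of the 32851 promoter windows of this length, 6.75% held AP-1, 7.02% held GAS, 10.2% held the antioxidant response element core, 2.98% held the ISRE core, 7.25% held kappaB and 12.4% held TATAAA. The windows of Tlr5, whose level differed most between the groups, of Tlr2 and of Myd88 are printed 5′ to 3′ on the strand of the gene, with matched letters in capitals.
Tlr5 promoter, chr1:182954538-182954787, plus strand: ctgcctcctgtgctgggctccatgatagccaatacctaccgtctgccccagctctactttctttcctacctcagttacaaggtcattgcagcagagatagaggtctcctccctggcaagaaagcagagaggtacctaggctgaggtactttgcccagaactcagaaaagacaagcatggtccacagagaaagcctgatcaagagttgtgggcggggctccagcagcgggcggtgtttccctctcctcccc
Tlr2 promoter, chr3:83841609-83841858, minus strand: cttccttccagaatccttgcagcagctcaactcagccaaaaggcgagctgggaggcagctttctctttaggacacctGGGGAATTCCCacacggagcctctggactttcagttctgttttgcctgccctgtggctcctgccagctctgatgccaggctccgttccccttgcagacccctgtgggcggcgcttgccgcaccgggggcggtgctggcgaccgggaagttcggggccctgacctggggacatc
Myd88 promoter, chr9:119340019-119340268, minus strand: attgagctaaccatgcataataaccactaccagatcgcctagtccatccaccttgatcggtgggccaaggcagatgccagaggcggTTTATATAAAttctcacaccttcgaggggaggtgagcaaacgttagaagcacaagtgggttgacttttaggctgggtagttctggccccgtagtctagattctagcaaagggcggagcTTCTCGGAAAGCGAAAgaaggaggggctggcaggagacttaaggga
The Tlr5 window held 0 of the 6 motifs, which says only that these letters are not in this window. The Tlr2 window held kappaB in 2 overlapping positions that began 173 and 172 bases before the start. In the Myd88 window, GAS began 46 bases before the start and overlapped an ISRE core on the opposite strand that began 40 bases before it, and TATAAA occurred once on each strand, 164 and 160 bases before the start, in overlapping letters. Windows not printed held matches too. KappaB was found for Tlr3, GAS for Tlr1, GAS and TATAAA for Tlr8, and the ISRE core and TATAAA for Tlr6. AP-1 and the antioxidant response element core were found for Tlr9. A match is a description of letters and no evidence of a bound factor.

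The 8 arrays lay on 1 slide, in 4 columns that each held 1 furan and 1 vehicle array. The array of vehicle replicate 2 stood apart, with 86.2% of its spots well above background, while the other 7 arrays lay between 55.1% and 69.4%, and correlations between arrays ran from 0.942 to 0.993. All 8 hepatocyte markers in the list were measured, with summed levels of 12.3 to 12.5 in furan livers and 12.2 to 12.7 in vehicle livers (log2). With 4 arrays a group, the number of animals limits the precision of every value below.

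Among the cell-surface receptors, Tlr5, the receptor for bacterial flagellin, differed most. Its levels were -2.31, -2.87, -1.77 and -1.97 in furan replicates 41, 42, 43 and 44, against -0.77, -0.40, -0.97 and -0.81 in vehicle replicates 2, 3, 4 and 6. Every furan liver lay below every vehicle liver, and furan replicate 42 was the lowest of the 8. The means were -2.23 ± 0.48 in furan livers and -0.74 ± 0.24 in vehicle livers (SD, n = 4 each), a difference of -1.49 ± 0.25 (SE), which leaves 35.5% of the vehicle level, a 2.82-fold lower signal. Before scaling, the processed intensities of the single Tlr5 probe, which has 1 spot per array, were 91.7, 53.05, 122.6 and 122 units in furan livers and 271, 255, 222 and 210 units in vehicle livers. The authors' deposited table gave Tlr5 log2 values of 7.23, 6.82, 7.48 and 7.39 in furan livers, against 7.95, 8.53, 8.06 and 8.11 in vehicle livers, and there too the groups did not overlap.

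Tlr5 was the 1 kept member of 8 past the adjusted p threshold of 0.05 in limma, a threshold that 4.18% of all features passed and that 1.31% passed as lower with furan. Since the members were chosen on this contrast, nothing is read from that count. Within the 4 slide columns the Tlr5 differences were -2.07, -1.36, -1.55 and -1.0. Within the slide rows the difference was -1.08 in row 1 and -1.91 in row 2, each from 2 furan and 2 vehicle arrays. Since every furan liver lay below every vehicle liver, these signs were fixed in advance, and only the sizes describe the positions. Relative to the median of all features, which was itself -0.09, the Tlr5 difference was -1.40, and over 8 scalings and filters it lay between -1.45 and -0.85. Tlr5 was not past the threshold without furan replicate 41, furan replicate 44, vehicle replicate 3, vehicle replicate 4 or vehicle replicate 6, and its difference without 1 array in turn ran from -1.65 to -1.28. It was also not past the threshold with a shift to the array median (-1.01), without the filter (-1.49), or when slide column was a block (-1.49). The shift to the array median raised all differences by nearly the same amount, and the median of all features became 0.39.

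**Figure D1:**
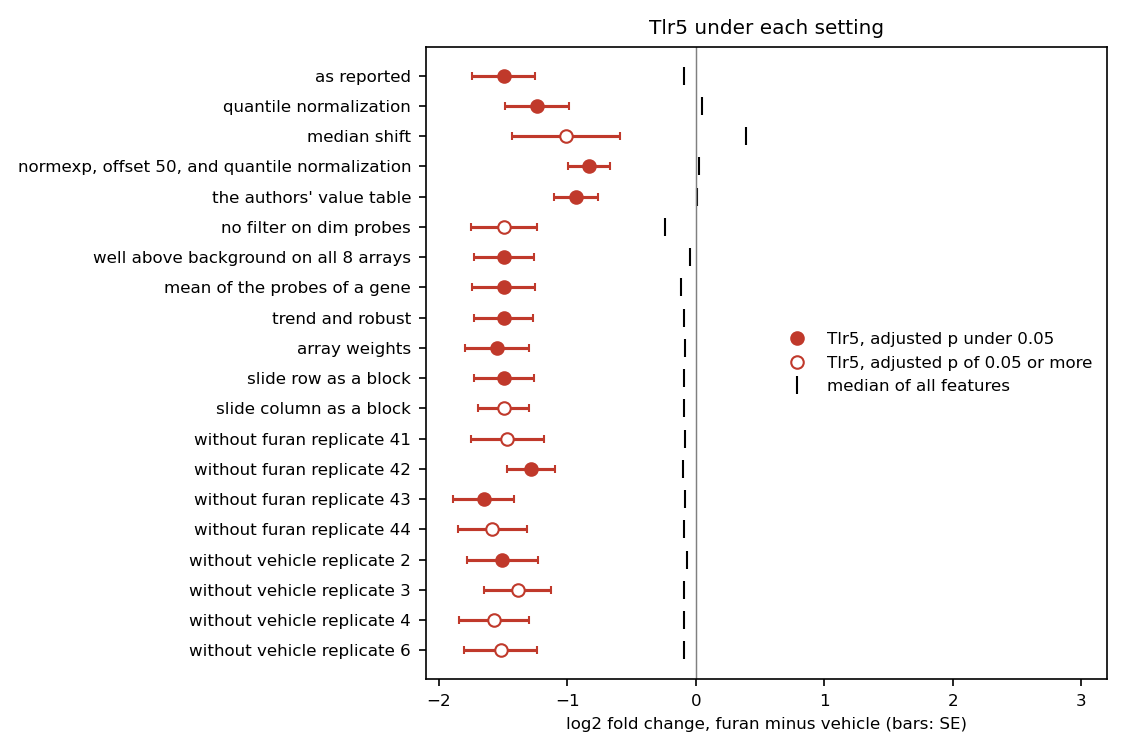
The log2 difference of Tlr5, furan minus vehicle, is plotted on the horizontal axis under 20 settings with its SE as bars, filled where the adjusted p was under 0.05, and a tick marks the median of all features. The Tlr5 value lies left of 0 and left of the tick in every setting drawn, between -1.65 and -0.83, while the call is lost in 8 of them.

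Tlr4, which senses bacterial lipopolysaccharide with the help of Ly96 and Cd14, had levels of -2.80, -2.76, -2.40 and -2.49 in furan livers, against -1.81, -2.32, -2.26 and -2.39 in vehicle livers. The furan livers again lay below all vehicle livers, but the gap was small and vehicle replicate 2 alone stood well above the rest. The difference of -0.42 ± 0.16 (SE) was not past the threshold, and its sign turned to 0.05 with quantile normalization, to 0.07 with a shift to the array median and to 0.01 with normexp background correction. Tlr4 and Tlr5 were the 2 kept members whose furan arrays all lay below their vehicle arrays, a pattern that 7.36% of all features showed. The Tlr4 probe has 2 spots per array, whose SD within an array ran from 0.030 to 0.165.

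Tlr2, which pairs with Tlr1 or Tlr6 to bind bacterial lipopeptides, was printed in 10 spots per array. Its levels were -0.18, -0.27, 0.16 and -0.33 in furan livers, against -0.29, -0.46, 0.05 and -0.72 in vehicle livers. The groups overlapped, and the difference of 0.20 ± 0.18 (SE) was not past the threshold. The spread over the 8 to 10 spots left on an array, an SD of 0.039 to 0.088, was smaller than the spread over animals, an SD of 0.22 in furan livers and 0.32 in vehicle livers.

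Tlr1 had levels of -4.07, -3.98, -2.71 and -3.41 in furan livers, against -2.78, -4.54, -2.72 and -4.56 in vehicle livers. Vehicle livers split into 2 high and 2 low values, the groups overlapped, and the difference was 0.11 ± 0.54 (SE). It turned to -0.17 without furan replicate 43, -0.19 without vehicle replicate 3 and -0.20 without vehicle replicate 6. It rose to 0.42 without vehicle replicate 4, 0.59 with the shift to the array median and 0.93 with quantile normalization. None of these passed the threshold. Tlr1 was the kept member nearest to the filter, well above background on 7 of 8 arrays, all but that of vehicle replicate 3. Tlr6, its neighbour on the chromosome in the RefSeq table, had levels of -2.86, -2.55, -1.86 and -2.58 in furan livers, against -1.82, -2.54, -2.23 and -2.82 in vehicle livers. The Tlr6 groups overlapped, and the difference of -0.11 ± 0.27 (SE) changed sign to 0.36 with quantile normalization, 0.38 with the shift to the array median, 0.15 with normexp, 0.11 in the authors' deposited table and 0.04 with array weights.

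Among the endosomal receptors, Tlr9, which binds unmethylated CpG DNA, was bright on all 8 arrays, at 8999 to 11712 units of processed intensity. Its levels were 4.52, 4.58, 4.81 and 4.61 in furan livers, against 4.55, 5.06, 4.37 and 4.72 in vehicle livers. The vehicle livers spanned the furan livers, and the difference was -0.05 ± 0.16 (SE), with a sign that turned to 0.44 under the shift to the array median. Relative to the median of all features, Tlr9 was at 0.05 before and after that shift. The Tlr9 level rests on a single probe with 1 spot per array. The RefSeq table places Tlr9 between Twf2 and Alas1, which encodes the first enzyme of haem synthesis.

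Tlr7, a receptor for single-stranded RNA, had 2 kept probes. The brighter one gave -1.81, -1.37, -1.29 and -1.49 in furan livers, against -1.68, -1.34, -1.37 and -1.40 in vehicle livers, with a difference of -0.04 ± 0.14 (SE). The other gave -3.50, -2.94, -2.75 and -2.83 in furan livers, against -2.18, -3.02, -2.19 and -3.42 in vehicle livers, with a difference of -0.30. Both probes overlapped between the groups, and the sign of the brighter one turned to 0.35 with quantile normalization, 0.45 with the shift to the array median, 0.19 with normexp and 0.12 in the authors' deposited table. Tlr3, the receptor for double-stranded RNA, was well above background on 0 arrays, with intensities of 3.31 to 9.70 units, and Tlr8, which also binds single-stranded RNA, on 1 array, that of vehicle replicate 2 at 38.1 units. No fold is given for either, and both fell well short of the filter of 4 arrays.

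Myd88, the adaptor that these receptors share, had levels of 2.21, 1.91, 2.18 and 1.87 in furan livers, against 1.72, 2.17, 2.06 and 1.85 in vehicle livers. The groups overlapped over most of their range, and the difference was 0.09 ± 0.14 (SE). The 9 or 10 spots left on each array had an SD of 0.040 to 0.091, against an SD over animals of 0.18 in furan livers and 0.20 in vehicle livers. Over the 8 kept members the median difference was -0.04, beside -0.09 over all features.

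**Figure D2:**
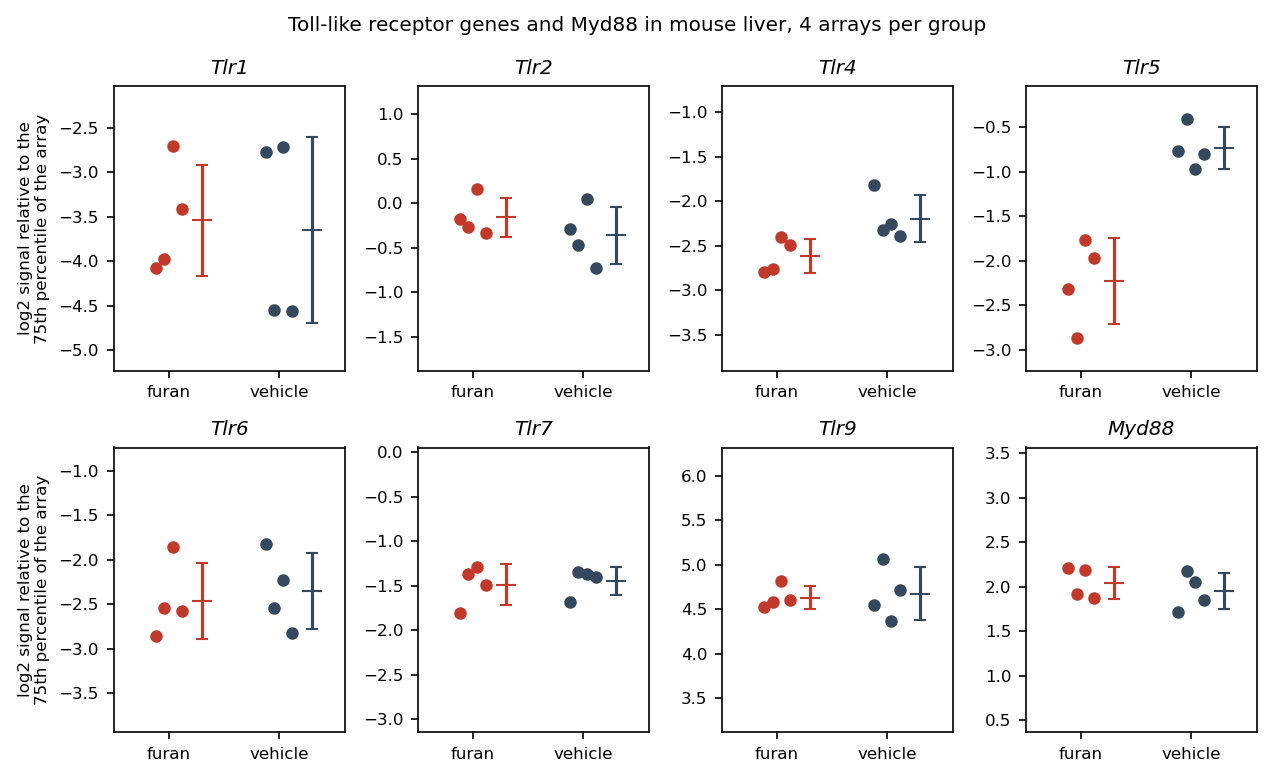
Levels of the 8 kept genes are drawn with 1 point per animal, furan left of vehicle, on a vertical axis of log2 signal relative to the 75th percentile of the array, with the mean and SD beside the points. Tlr5 and Tlr4 are the panels without overlap, and the mean Tlr5 level is -2.23 in furan livers and -0.74 in vehicle livers.

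**Figure D3:**
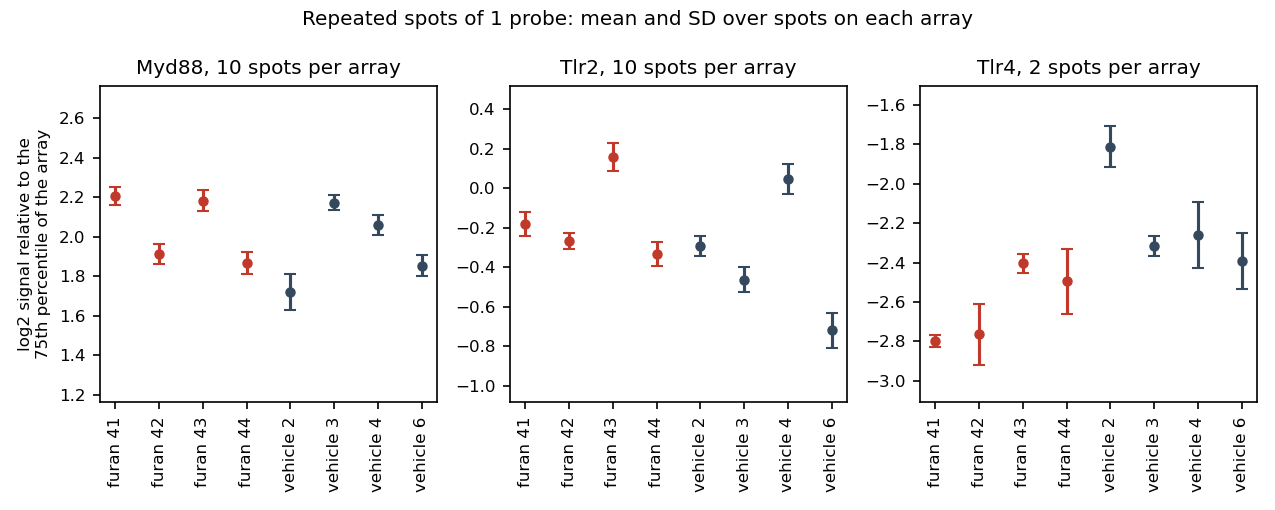
For the 3 members whose probe is printed in repeated spots, the mean and SD over the spots of each array are drawn on a vertical axis of log2 signal relative to the 75th percentile, furan arrays left of vehicle arrays. For Myd88 the SD over spots is at most 0.091 and for Tlr2 at most 0.088, and some arrays lie closer together than these bars.

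The partner genes of the pathway were counted in lists by role. Of the 113 genes listed, 93 were kept, and 6 passed the adjusted p in limma, 5 higher and 1 lower with furan. That share of 6.45% stands beside 4.18% for all features, with 2.87% of all features passing as higher. The median difference of the 93 genes was 0.05.

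Kinases and ubiquitin ligases just below the receptors held 4 of these 6 genes, among 21 kept. Ikbkg, the regulatory subunit of the IkappaB kinase complex, was 0.89, 0.83, 0.93 and 0.67 in furan livers, against -0.24, -0.07, -0.54 and -0.27 in vehicle livers. It rose by 1.11 ± 0.12 (SE, adjusted p = 0.00653 in limma), or 2.16-fold, and a second Ikbkg probe gave a difference of 1.13. Traf3, a ubiquitin ligase that directs Toll-like receptor signals towards interferon, was 1.94, 2.05, 2.10 and 1.78 in furan livers, against 1.02, 1.27, 1.28 and 1.15 in vehicle livers. Traf3 rose 1.73-fold, by 0.79 ± 0.11 (SE, adjusted p = 0.0133 in limma), and neither gene overlapped between the groups.

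Map3k7, the kinase TAK1 that activates the IkappaB kinases, averaged 3.13 ± 0.088 in furan livers and 2.71 ± 0.052 in vehicle livers (SD, n = 4 each), 0.41 ± 0.08 higher (SE, adjusted p = 0.0355 in limma). Its other 2 kept probes gave smaller differences of 0.07 and 0.27. Peli3, a ubiquitin ligase of the Pellino family that acts on Irak proteins, averaged -2.74 ± 0.38 in furan livers and -1.77 ± 0.17 in vehicle livers, a fall of -0.97 ± 0.19 (SE, adjusted p = 0.0362 in limma). Map3k7 and Peli3 each kept the call in 4 of 19 other settings. Both lost it whichever of the 8 arrays was left out, with differences of 0.38 to 0.45 for Map3k7 and -1.07 to -0.80 for Peli3. The Peli3 difference was smaller under some other scalings, at -0.52 with quantile normalization, -0.31 with normexp and -0.39 in the authors' deposited table. With the shift to the array median, which raised all differences by nearly the same amount, Peli3 was at -0.49 and Map3k7 at 0.90. Map3k7 was 0.25 as the mean of its probes. Traf3 and Ikbkg kept the call in 17 of 19, all but the shift to the array median and the slide column as a block.

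Target genes of the pathway had 1 of 16 kept genes past the threshold. Cxcl10, an interferon-inducible chemokine that attracts T cells, was 1.98, 2.29, 2.13 and 1.99 in furan livers, against 0.17, 0.46, 0.75 and 0.26 in vehicle livers. It rose 3.23-fold, by 1.69 ± 0.15 (SE, adjusted p = 0.00433 in limma), and kept the call in 18 of 19 other settings, all but the slide column as a block (adjusted p = 0.0959). The median difference of the 16 targets was 0.64, beside -0.09 for all features, and in 8 of them every furan liver lay above every vehicle liver, as in 10.8% of all features. Under 4 other scalings the target median stood 0.50 to 0.73 above that of all features. The 8 were Cxcl10, Lcn2, Ccl2, Saa1, Saa2, Saa3, Vcam1 and Icam1, named after their values were seen. Lcn2, an iron-binding acute-phase protein, averaged 3.08 ± 0.73 in furan livers and 1.90 ± 0.31 in vehicle livers, and Ccl2, a monocyte chemokine, averaged -0.38 ± 0.32 in furan livers and -1.51 ± 0.48 in vehicle livers (SD, n = 4 each), with adjusted p = 0.0992 and 0.0539 in limma. Ccl2 passed under some other settings, such as quantile normalization (adjusted p = 0.0271) and normexp (adjusted p = 0.0114). Of the 16 targets 12 lay above 0. The largest fall was that of Il1a, at -1.14 ± 0.58 (SE, adjusted p = 0.267 in limma), with overlap between the groups and a vehicle SD of 1.22. Tnf, Il1b and Il6, the classical cytokine products of Toll-like receptor signalling, overlapped between the groups, with differences of -0.03, -0.17 and 0.23. With quantile normalization the signs of Tnf and Il1b turned to 0.79 and 0.44, and Il6 was 0.96. Tnf, at means of -3.74 in furan livers and -3.71 in vehicle livers, and Il6, at -4.41 and -4.64, lay near background. Neither was well above background on all 8 arrays, which limits what their differences show.

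The IL-1 family genes, whose receptors also use Myd88, had 1 of 6 past the threshold. Il33, an alarmin released by damaged cells, averaged -1.45 ± 0.066 in furan livers and -1.96 ± 0.12 in vehicle livers (SD, n = 4 each), 0.51 ± 0.09 higher (SE, adjusted p = 0.0268 in limma), and kept the call in 8 of 19 other settings. It lost the call without any 1 furan replicate, vehicle replicate 4 or vehicle replicate 6, with differences of 0.47 to 0.54. The median of the 6 was -0.11.

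The other 6 lists had 0 genes past the threshold in limma. An unadjusted p under 0.05 was found for 12 of their 50 kept genes, or 24%, beside 23.8% of all features. Of the receptors outside the members, Tlr12, which in mice senses profilin of Toxoplasma, was 2.41, 1.41, 2.47 and 2.32 in furan livers, against 2.91, 3.58, 2.99 and 3.05 in vehicle livers. Its groups did not overlap, and its difference of -0.98 ± 0.26 (SE) had an adjusted p = 0.0778 in limma, passing in 5 of 19 other settings, whose adjusted p-values ran from 0.0258 to 0.574. Tlr13, a mouse sensor of bacterial ribosomal RNA, differed by 0.33 ± 0.34 (SE), and by 0.70 without vehicle replicate 4.

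The co-receptors and chaperones had a median difference of 0.06 over 9 kept genes. Lbp, which carries lipopolysaccharide to Cd14, differed by -0.45 ± 0.16 (SE, adjusted p = 0.148 in limma), and Cd36, a scavenger receptor that works with Tlr2 and Tlr6, by 0.39 ± 0.14 (adjusted p = 0.146). Of the 3 kept TIR adaptors, Ticam1, through which Tlr3 signals, differed by -0.37 ± 0.09 (adjusted p = 0.0614), and Pik3ap1, which links the receptors to PI3 kinase, by -0.49 ± 0.16 (adjusted p = 0.120). Ticam1 passed in 4 of 19 other settings and Lbp in 2 of 19. With a shift to the array median, the signs of Ticam1 and Lbp turned to 0.11 and 0.04 and Pik3ap1 was at -0.0019. That shift moved the median of all features to 0.39.

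Among the 8 kept NF-kappaB and IRF factors, Irf7 differed by -0.60 ± 0.26 (SE, adjusted p = 0.210 in limma) and Nfkb1 by -0.35 ± 0.23 (adjusted p = 0.347). Of the 14 kept negative regulators, Nfkbia, the inhibitor that holds NF-kappaB in the cytoplasm, differed by -0.37 ± 0.15 (adjusted p = 0.193), and Tnfaip3, the deubiquitinase A20, by 0.33 ± 0.13 (adjusted p = 0.188). The signs of Nfkb1 and Nfkbia turned to 0.13 and 0.12 under the shift to the array median. All differences rose together under that shift.

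The cytosolic sensors include Nlrc4, which forms inflammasomes with Naip proteins. In mice, Naip5 and Naip6 bind flagellin inside the cell, and Naip1 binds the needle protein of bacterial type III secretion systems. Naip5 differed by -0.21 ± 0.09 (SE, adjusted p = 0.218 in limma), without overlap, and Naip6 by -0.38 ± 0.46 (adjusted p = 0.597), and their signs turned to 0.27 and 0.10 under the shift to the array median. That shift raised the differences of all features together. Naip1 differed by -0.75 ± 0.30 (SE, adjusted p = 0.184 in limma) and Nlrc4 by -0.60 ± 0.43 (adjusted p = 0.399). Naip1, Naip6 and Nlrc4 lay near background, at furan means of -3.91, -3.59 and -5.03 and vehicle means of -3.15, -3.21 and -4.43. None of them was well above background on all 8 arrays. Naip1 was at -0.08 with quantile normalization, -0.04 with normexp and -0.10 in the authors' deposited table, and in those settings Nlrc4 turned to 0.32, 0.08 and 0.09. The median of the 14 kept sensors was -0.13, that of the 14 negative regulators 0.12, of the 8 NF-kappaB and IRF factors 0.02, of the 3 adaptors -0.37 and of the 2 receptors outside the members -0.33.

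**Figure D4:**
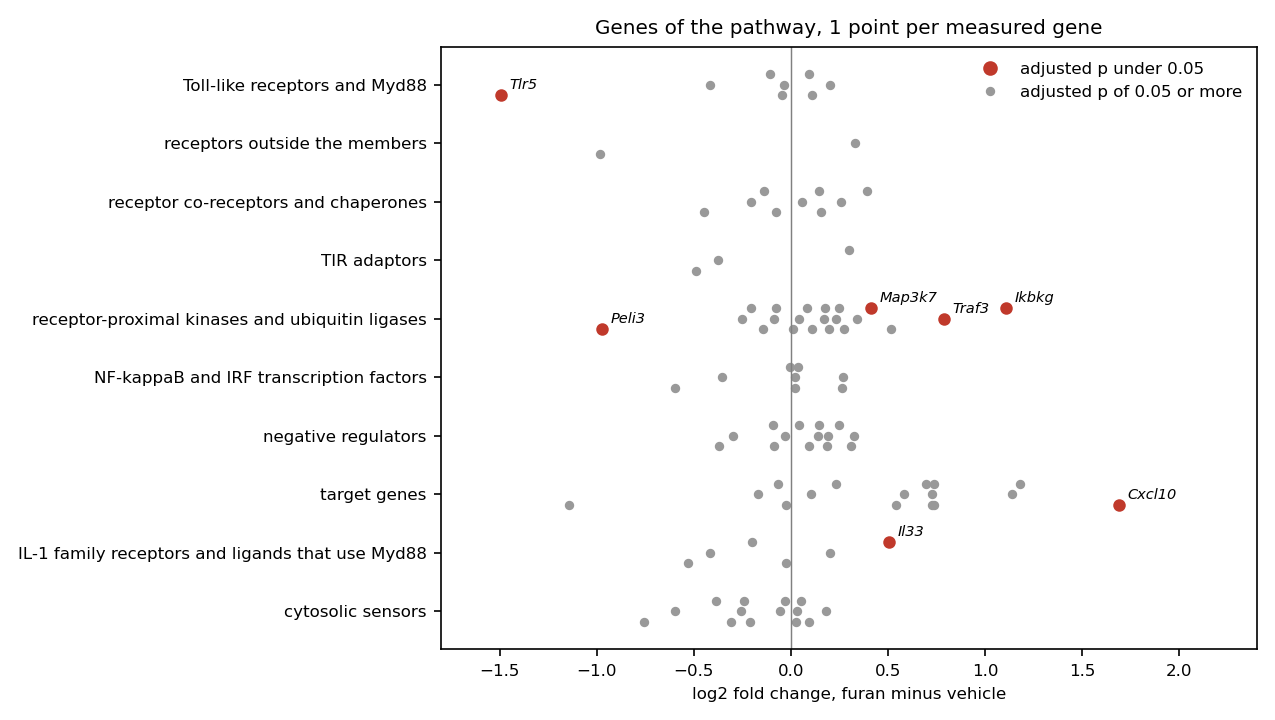
Each point is 1 measured gene, placed on the horizontal axis by its log2 difference, furan minus vehicle, with the 8 kept members in the top row and the pathway lists below. Tlr5 at -1.49 and Cxcl10 at 1.69 are the points farthest from 0 on either side, and the 16 target genes have a median of 0.64.

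Markers of the cell types that a liver sample holds were summed beside these values. The sums were taken before the log2, so the brightest marker of a list weighs most. None of the 61 kept markers in 8 lists passed the threshold in limma, and 8, or 13.1%, had an unadjusted p under 0.05, beside 23.8% of all features. The sinusoidal endothelial sum was 6.29 to 6.57 in furan livers and 6.58 to 6.85 in vehicle livers (log2), so that the groups did not overlap, while under the shift to the array median it was 9.57 to 10.1 in furan livers and 8.40 to 10.2 in vehicle livers. The shift widened the vehicle range of other lists too. The hepatocyte sum became 15.55 to 15.88 in furan livers and 14.01 to 15.96 in vehicle livers. Of the 8 sinusoidal endothelial genes, Stab2, a scavenger receptor of that endothelium, differed by -0.48 ± 0.12 (SE, adjusted p = 0.0687 in limma). Pecam1, an endothelial adhesion molecule, differed by -0.39 ± 0.09 (adjusted p = 0.0550). Both were lower without overlap, as were 7.36% of all features, and both were picked after their values were seen. The rest of the 8 sinusoidal endothelial genes overlapped between the groups. The part of these cells in the Tlr5 values was not tested.

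The Kupffer cell and macrophage sum was 7.40 to 7.76 in furan livers and 7.19 to 8.48 in vehicle livers, over 11 kept of 12 markers. For neutrophils and monocytes it was 6.38 to 6.86 in furan livers and 6.56 to 6.94 in vehicle livers, with Mpo and Cxcr2 not kept. The lymphocyte sum was 4.31 to 4.77 in furan livers and 4.56 to 4.64 in vehicle livers, with Cd8a and Klrb1c not kept, and the dendritic cell sum was 6.33 to 6.76 in furan livers and 6.44 to 6.86 in vehicle livers, with Xcr1 not kept. Stellate cell markers summed to 6.87 to 7.05 in furan livers and 6.72 to 7.16 in vehicle livers, and bile duct markers, without Cftr, to 0.751 to 1.19 in furan livers and 0.790 to 1.74 in vehicle livers. In some lists a single gene made up most of the sum. For neutrophils and monocytes it was Csf3r, at 6.62 in furan and 6.71 in vehicle livers, and for lymphocytes Cd4, at 3.98 and 4.05. For dendritic cells it was Siglech, at 6.61 and 6.64, and for stellate cells Dcn, at 6.61 and 6.53. Such a sum says little of the other markers in its list. The ranges of all these sums overlapped. The median differences of the single markers were -0.12 for Kupffer cells and macrophages, -0.04 for neutrophils and monocytes and -0.29 for lymphocytes. They were -0.11 for dendritic cells, -0.03 for stellate cells and -0.125 for bile duct, beside -0.09 for all features. Of the 9 lymphocyte markers 0 lay above 0, and of the 11 Kupffer cell and macrophage markers 1 did, while 15000 of 24921 features lay below 0. The part of these cells in the values of the Toll-like receptors and Cxcl10 was not tested.

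The genes whose levels followed Tlr5 most closely over the 8 arrays, among 15012 genes, were Kcnk10 (Pearson r = 0.991), Morn1 (0.988), Dpysl4 (0.987), Arl2 (0.984) and Ahnak (0.983). Kcnk10, which encodes a potassium channel, differed by -1.44 ± 0.21 (SE) between the groups, a size close to that of Tlr5. After each group mean was subtracted, the closest were Gmppb (0.986), Nhej1 (0.975) and Gatc (0.965), 3 genes outside the first 5. For Myd88 the closest were Pop4 (0.986), Fbxl17 (0.974), Zfp777 (0.959), Cox7a2l (0.957) and H4c4 (0.953), and Pop4, Zfp777 and Fbxl17 remained the closest 3 after subtraction, at 0.987, 0.985 and 0.978. These values describe 8 arrays that share 1 slide and 1 scaling, and they were picked as the highest of all genes searched.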

How the data were processed

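Total RNA of 8 livers was measured on 1-colour Agilent arrays (design 028005). Per the file headers, the deposited scanner files hold the fluorescence intensity of each spot from Agilent Feature Extraction 11.0.1.1, including a background-subtracted and detrended processed intensity. The authors' deposited value table holds log2 values. How it was normalized is not stated in what was used here, and its columns, with medians of 6.53 to 6.74, correlated at 0.998 to 1.00 over probes with the log2 median spot intensity.

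Each array held 62976 spots, and 3671 controls and 128 to 315 outlier spots per array were left out. No spot was saturated (0 spots). The 75th percentile of each array was subtracted from its log2 processed intensities, and spots of a probe were averaged. Probes had to be well above background on 4 or more of 8 arrays, whatever the group, which left 33848 of 55681. The brightest kept probe stood for a gene. Symbols came from RefSeq accessions (27235 of 28685 probes matched). Probe annotation is on another build, so only promoter windows have positions.

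Groups were compared with lmFit and eBayes in limma 3.58.1 under R 4.3.3. Tests were 2-sided, and p-values were adjusted by Benjamini-Hochberg across 24921 features. The fit, tested on simulated data, had 1 group term, since the sources do not say which animals share a block. Alternatives covered scaling, background correction, filters, probe choice, variance models, slide position and each array left out. The members and lists were chosen with earlier results of these data known. Named were all members, each pathway gene past the threshold, the 2 genes with the largest differences of each other list, and the genes most correlated with Tlr5 and Myd88. Outside that rule, the target genes without overlap, Tnf, Il1a, Il1b, Il6, Naip5, Naip6, Stab2 and Pecam1 were named after their values were seen. The same holds for Csf3r, Cd4, Siglech and Dcn. The labels call the animals biological replicates.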

Additional observations from a re-analysis of the deposited data

Results flagged for a closer look

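Of the 52 groups of 4 arrays looked at for the members and named pathway genes, 1 had an array far from the others, and chance gives about 1 in 20 such groups. This was Tlr12 in furan replicate 42, at 1.41 (log2 relative to the 75th percentile), against 2.32 to 2.47 in the other 3 furan livers. Without furan replicate 42 the Tlr12 difference was -0.74 (adjusted p = 0.10 in limma), compared with -0.98 with all 8 arrays. Furan replicate 42 was also the lowest array for Tlr5.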

How the results depend on the processing

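Replicate numbers are not shared between the groups and pair no arrays, so arrays were paired only by position, in the fit with the slide column as a block (Tlr5 difference -1.49 ± 0.20 SE, adjusted p = 0.118 in limma). The 1041 features past the threshold became 86 with a shift to the array median, 1668 in the authors' deposited table, 163 with no filter, 1733 with detection on all 8 arrays, 2001 with trend and robust, 2043 with array weights and 0 with the slide column as a block (limma, with 4723 at an unadjusted p under 0.05), and ran from 195 to 927 without 1 array in turn. The same settings gave 1, 11, 3, 14, 17, 14 and 0 of the pathway genes in place of 6, and 3 to 5 without 1 array. Members past the threshold, 1 of 8, became 0 with the median shift, no filter or the column block, where the Tlr5 difference was -1.01, -1.49 and -1.49, and 0 to 1 without 1 array, with a Tlr5 difference of -1.65 to -1.28. The cause was not tested. The shift to the array median moved the median of all features to 0.39 from -0.09, and Tlr4, Tlr6, Tlr7 and Tlr9 changed sign under it. As it raised all differences by nearly the same amount, those sign changes are not particular to these genes. Tlr5 was below 0 under all 19 alternatives. It was chosen as lower and its groups do not overlap, so leaving out 1 array could not change that sign. Several other settings left its difference at -1.49, so nothing is read from that count. Cxcl10 kept its call under 18 of 19 alternatives. Tlr1, Tnf, Il6, Naip1, Naip6 and Nlrc4 lay near background, and Tlr3 and Tlr8 were left out by the filter, which limits what these arrays show of them.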
